A study of Mus musculus with 23 samples.

Results

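The bone morphogenetic protein (BMP) pathway was followed at the RNA level through 10 genes, of 23723 gene symbols in the count table. They hold successive places in the pathway, in mouse embryos at E6.25, just before gastrulation. RNA levels alone do not measure signalling. The members were listed by name and role: the ligands Bmp2, Bmp4, Bmp7 and Bmp8b, the receptor Bmpr1a, the receptor-activated SMADs Smad1 and Smad5, and the target genes Id1, Id2 and Id3. The study measured polyadenylated RNA by RNA-seq in 23 libraries, each made from the combined lysates of 6 or more embryos of 2 to 3 litters. It asked how the loss of TET1, an enzyme that oxidises methylated cytosine in DNA, acts in the embryonic and the extra-embryonic part of the embryo. The epiblast (E) gives rise to the body of the embryo, and the extra-embryonic tissue (ExE) to parts of the placenta and membranes. Each tissue was collected from wild-type embryos (wt), from embryos with 1 copy of the allele written gt in the labels (Tet1gt/wt, called het here) and from embryos with 2 copies (Tet1gt/gt, called hom here), all at E6.25. There were 4 pools in each of 5 groups and 3 in the ExE hom group, and the labels give no strain, no sex and no method of separating the tissues.

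BMPs are secreted dimers that bind a complex of type I receptors, such as BMPR1A, and type II receptors on the cell surface. The type I receptor phosphorylates SMAD1 and SMAD5, which enter the nucleus with SMAD4 and switch on target genes, of which the Id genes, inhibitors of basic helix-loop-helix transcription factors, are the best known. In the mouse egg cylinder, BMP4 and BMP8B from the extra-embryonic ectoderm act on the neighbouring epiblast and are required for primordial germ cells, while BMP2 comes mainly from the visceral endoderm that covers both.

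The stretches of DNA below each lie within the 250 bases upstream of a RefSeq start of a member. They are shown because their genes differed between the wt tissues in opposite directions: Bmp4, Bmp8b and Id2 were higher in ExE, and Smad5 was lower. They come from RefSeq (GRCm38.p6), read 5′ to 3′ on the gene's strand, in lower case with each CpG, the dinucleotide that carries most DNA methylation in mammals, in capitals. The first lies at chr14:46390670-46390919 (minus strand), the second at chr4:123104911-123105160 (plus strand) and the third at chr13:56702760-56703009 (plus strand). The fourth, at chr12:25096254-25096342 (minus strand), is the part of the 250 bases upstream of the RefSeq start of Id2 that lies in no annotated exon. This stretch of 89 bases is the end of the 250 farthest from the start, and it holds 4 CpGs. It lies inside the longer Id2 gene of the GENCODE annotation, which begins further upstream.
Bmp4: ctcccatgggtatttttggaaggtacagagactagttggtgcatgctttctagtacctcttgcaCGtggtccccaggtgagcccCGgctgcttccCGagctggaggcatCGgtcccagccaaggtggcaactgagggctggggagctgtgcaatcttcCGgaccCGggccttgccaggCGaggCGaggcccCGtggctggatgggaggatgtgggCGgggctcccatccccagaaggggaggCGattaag
Bmp8b: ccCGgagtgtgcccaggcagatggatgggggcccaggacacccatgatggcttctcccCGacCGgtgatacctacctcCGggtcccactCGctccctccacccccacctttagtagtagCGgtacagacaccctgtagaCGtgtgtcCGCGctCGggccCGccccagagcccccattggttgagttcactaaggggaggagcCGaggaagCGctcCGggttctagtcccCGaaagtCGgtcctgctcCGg
Smad5: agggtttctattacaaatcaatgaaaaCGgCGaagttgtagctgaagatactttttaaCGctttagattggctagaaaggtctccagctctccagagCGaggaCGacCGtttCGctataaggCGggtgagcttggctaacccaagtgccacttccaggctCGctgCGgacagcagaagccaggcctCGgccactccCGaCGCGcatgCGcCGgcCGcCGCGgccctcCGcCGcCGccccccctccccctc
Id2: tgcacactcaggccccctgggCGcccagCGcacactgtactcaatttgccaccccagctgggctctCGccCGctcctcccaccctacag
Bmp4 had 11 CpGs in its 250 bases and Bmp8b had 17, against a median of 6 and quartiles of 2 and 16 over all 32851 mouse promoters of the RefSeq table. Over 250 bases, Id2 and Id3 each had 18, Smad1 had 25, Bmpr1a had 36, and the 3 promoters of Smad5 had 22, 27 and 27. Of the 10 members, 7 were in the RefSeq table, and Bmp2, Bmp7 and Id1 were not. GGCGCC, a palindrome known as a site for BMP-activated SMADs, was in the 250 bases of 3 of the 7 (Bmpr1a, Id2 and the second Smad5 promoter) and in 9.59% of all promoters. In Id2 it starts 231 bases before the gene's start, within the stretch printed above. GTCTAGAC, the palindromic SMAD element, was in 0 of the 7 and in 0.17% of all promoters. These matches describe letters only.

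Between 4912215 and 9494814 counts fell on genes in each library, so that 3 counts, the limit that a count of 0 allows, corresponded to 0.316 to 0.611 CPM, the count scaled to the library's total. Every level below is in CPM after TMM scaling, and these limits cover counting error only. Tet1 averaged 173 ± 31.7 CPM (SD, n = 4) in E wt, 124 ± 38.6 (n = 4) in E het and 81.1 ± 24.8 (n = 4) in E hom. In ExE it averaged 96.0 ± 13.7 (n = 4), 48.1 ± 7.50 (n = 4) and 27.8 ± 8.74 (n = 3), and hom and wt libraries did not overlap in either tissue. The labels of the tissues were matched by their markers: 9 epiblast genes summed to 3939 to 6001 CPM in E libraries and 871 to 3054 in ExE, and 10 genes of the extra-embryonic ectoderm to 140 to 541 in E and 1715 to 2929 in ExE. Libraries differed in how much of the other tissue's markers they held. Across E libraries, the median of 9 extra-embryonic ectoderm markers was 0.101% to 17.4% of the ExE level of the same genotype, and across ExE libraries the median of 7 epiblast markers was 1.85% to 35.8% of the E level. These 9 and 7 are the genes of the lists of 10 and 9 that passed the test in their own direction between the wt tissues. Zic5, which was higher in E (log2 fold change -1.61 in wt), and Pou3f1 and Utf1, which did not pass, were left out. With all 10 and all 9 genes the medians were 0.113% to 18.8% and 2.66% to 41.0%. The 8 markers of the maternal decidua summed to 264 CPM in ExE hom pool 3, beside 19.2 and 37.6 in the other ExE hom pools. They summed to 3.32 to 17.7 in ExE wt, 6.36 to 27.7 in ExE het and 8.85 to 48.3 in E. ExE hom pool 3 was also the highest ExE library for Bmp2 (5.70 CPM) and Id3 (178 CPM). ExE wt pool 1 was next for both, at 4.20 and 173 CPM, with a decidua sum of 6.36. The 20 markers of the visceral endoderm summed to 390 CPM in ExE hom pool 3 and 518 in ExE wt pool 1. They summed to 94.0 to 166 in the other ExE libraries. The part of maternal tissue or of visceral endoderm in these levels was not tested. E het pool 4, E hom pool 3 and ExE hom pool 3 also stood apart in 76 ribosomal protein genes, whose log2 CPM averaged 9.42, 9.46 and 9.84 there and 8.02 to 8.73 in the other 20 libraries. The same 3 libraries were apart in length and GC. In each, Bmpr1a, Smad1 and Smad5, with 6351, 6262 and 7420 bases of exon, were the lowest of their group. Id2 and Id3, with 2438 and 1791 bases, were the highest of their group. Id1, with 1160 bases, was so only in E het pool 4. The part of length and GC in the levels was not tested.

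Across the tissues of wild-type embryos, the RNA of BMP ligands and of the genes downstream of them was split. Bmp4, Bmp7, Bmp8b and Id2 were higher in ExE, and Smad1, Smad5 and Id3 were higher in E, while Bmp2, Bmpr1a and Id1 did not pass the test. By edgeR's quasi-likelihood test with Benjamini-Hochberg adjustment over 13595 genes (adjusted p below 0.05), 4 of the 10 members were called higher in ExE, beside 9.28% of all genes, and 3 were called lower, beside 7.98%. In both directions together that is 7 of 10, beside 17.3% of all genes. The members were chosen with earlier results of these data known, so these shares are a description only. The median log2 fold change over the 10 was 0.46, and over all genes it was -0.013.

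Bmp4, the ligand whose loss in the extra-embryonic ectoderm leaves the epiblast without germ cells (chr14:46383520-46390669, GRCm38, minus strand), showed 14.5, 1.65, 21.2 and 7.84 CPM in the 4 E wt libraries. In ExE wt it showed 110, 147, 163 and 156. All 4 ExE libraries lay far above all 4 E libraries, and the E libraries differed among themselves by more than the ExE ones in proportion. The difference was 12.8-fold (log2 fold change 3.68 ± 0.79 SE, adjusted p = 0.00289 by edgeR). Het libraries gave 0.106, 5.76, 23.2 and 4.07 in E and 137, 142, 116 and 147 in ExE. Hom libraries gave 15.6, 3.44, 14.2 and 1.87 in E and 82.5, 82.7 and 150 in ExE. Again the tissues did not overlap, and Bmp4 was higher in ExE by 4.07 ± 0.81 on the log2 scale in het (adjusted p = 0.000744) and by 3.58 ± 0.82 in hom (adjusted p = 0.00506, both by edgeR). Without E het pool 4, the highest E library, the het value was 5.38 (adjusted p = 6.09e-05 by edgeR).

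Bmp8b, a BMP that cooperates with BMP4 in the induction of germ cells (chr4:123105165-123132099, plus strand), had the largest difference of the 10 in each genotype. Its E wt libraries held 12.2, 1.76, 10.3 and 1.63 CPM and its ExE wt libraries 96.0, 157, 140 and 177. E het libraries held 0.742, 0.346, 20.8 and 2.36 CPM, and ExE het libraries 158, 164, 134 and 234. In hom, E held 10.1, 2.60, 7.77 and 1.53 CPM, and ExE 142, 83.6 and 145. No E library reached any ExE library. The log2 difference was 4.46 ± 0.85 in wt (22-fold, adjusted p = 0.00113), 4.91 ± 0.87 in het (adjusted p = 0.00025) and 4.48 ± 0.88 in hom (adjusted p = 0.00157), all by edgeR. Without E het pool 4 the het value was 7.27 (adjusted p = 2.01e-06 by edgeR). Its neighbour Bmp8a is a near-identical copy, so reads shared by the pair are uncertain, and Bmp8b also overlaps Oxct2b, Ppie and Gm17244. Bmp8a, counted separately, averaged 1.86 ± 1.08 CPM in E wt and 19.1 ± 5.5 in ExE wt (n = 4 each).

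Bmp7, a ligand that pairs with several other BMPs (chr2:172868012-172940321, minus strand), was low everywhere. It showed 3.29, 1.21, 2.58 and 0 CPM in E wt and 6.60, 18.3, 12 and 10.4 in ExE wt. The tissues did not overlap, and the log2 difference was 2.73 ± 0.92 (6.62-fold, adjusted p = 0.0438 by edgeR). It was 2.72 ± 0.92 in het (adjusted p = 0.0317) and 2.95 ± 0.96 in hom (adjusted p = 0.038). Of all members Bmp7 was the nearest to the threshold: leaving out 1 library of the groups compared at a time, its call was lost in 6 of 8 fits in wt, 6 of 8 in het and 6 of 7 in hom, and in hom with the pool number as a block (2.84, adjusted p = 0.0707 by edgeR). The het call was also lost when only the het groups were fitted (2.71, adjusted p = 0.0847), and without E het pool 4 the het value was 3.91 (adjusted p = 0.00551, both by edgeR).

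Bmp2, the ligand of the visceral endoderm (chr2:133552159-133562885, plus strand), was near the limit of detection in most libraries. E wt libraries held 2.23, 0.220, 1.49 and 0.738 CPM, and ExE wt libraries 4.20, 1.77, 0 and 0.407. The groups overlapped, and the log2 difference of 0.45 ± 1.31 did not pass the test (adjusted p = 0.868 by edgeR). The difference was -0.98 ± 1.46 in het (adjusted p = 0.679) and -1.49 ± 1.45 in hom (adjusted p = 0.521).

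**Figure D1:**
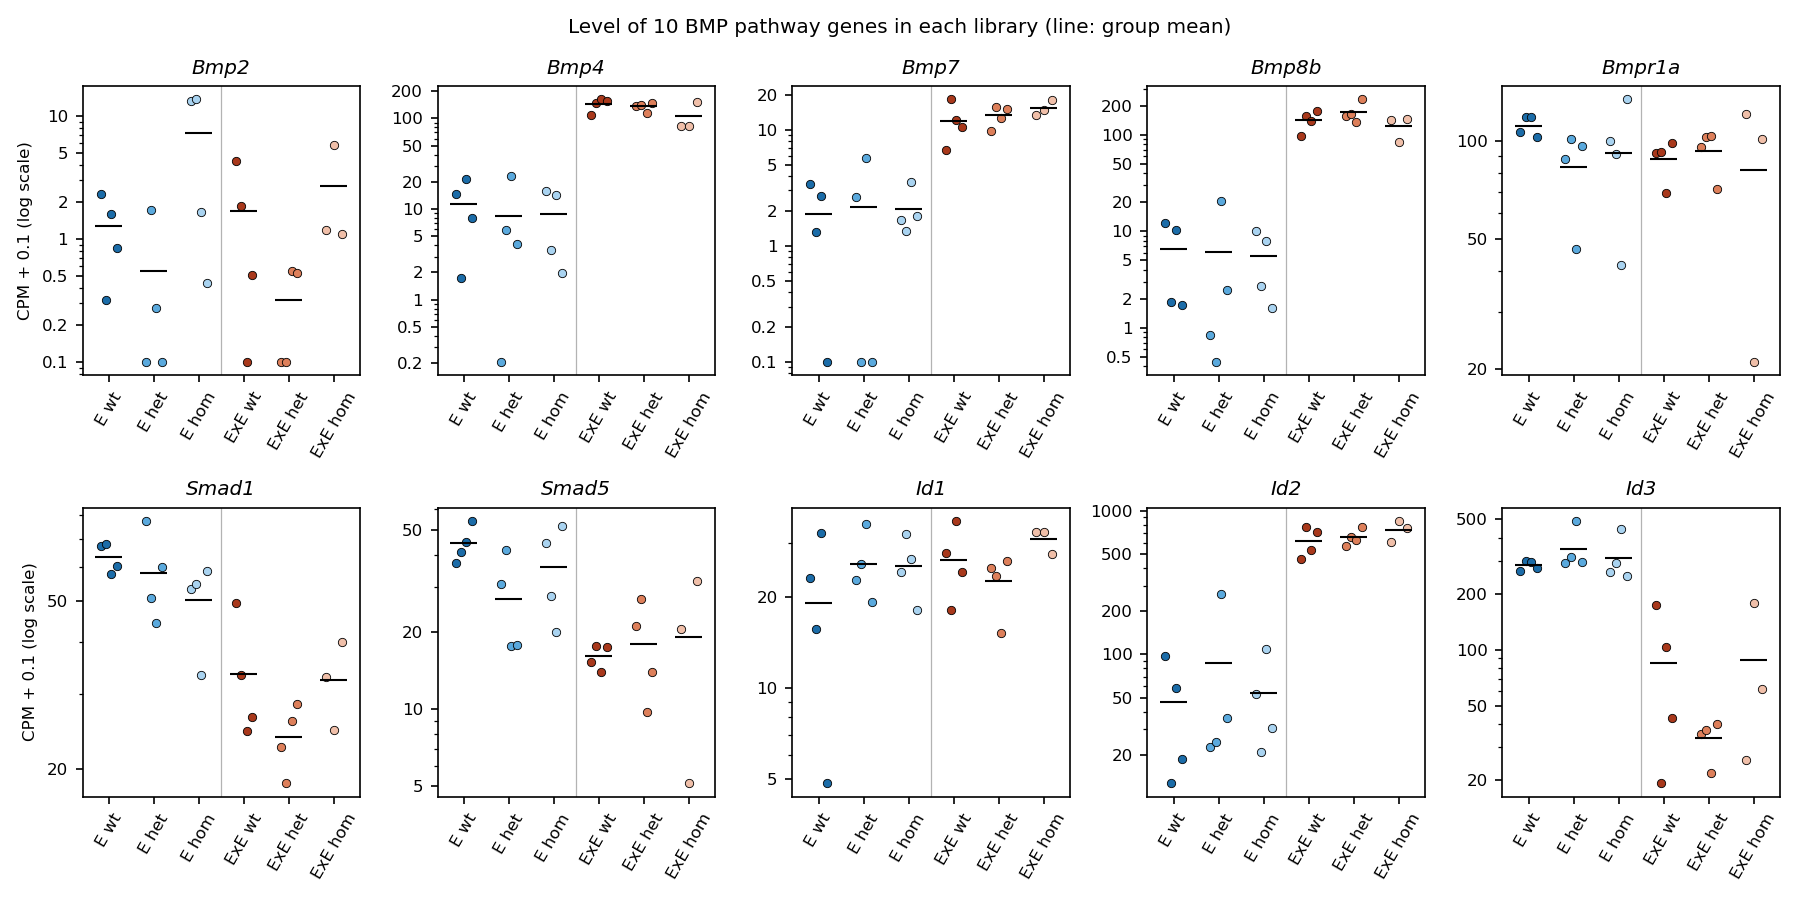
Level of each member in every library, as CPM + 0.1 on a log axis that differs between panels. Points are libraries, lines are group means, blue is E and red is ExE. Bmp4, Bmp7, Bmp8b and Id2 lie higher in ExE without overlap in each genotype, and Id3 lies higher in E.

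Bmpr1a, a type I receptor of BMPs (chr14:34410734-34503341, minus strand), did not pass the test in any genotype. It showed 106, 118, 118 and 102 CPM in E wt and 91.9, 92.3, 69.2 and 98.2 in ExE wt. All ExE wt libraries were below all E wt libraries, as in 28% of all genes for either direction, yet the log2 difference of -0.34 ± 0.36 did not pass the test (adjusted p = 0.588 by edgeR). In het it was 0.16 ± 0.36 (adjusted p = 0.789) and in hom -0.17 ± 0.40 (adjusted p = 0.817), with overlap of the tissues in both. The lowest values of Bmpr1a were in the 3 libraries with the high ribosomal protein level, at 46.6 CPM in E het pool 4, 41.6 in E hom pool 3 and 21.0 in ExE hom pool 3. The part of that feature in the result was not tested.

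The receptor-activated SMADs, which carry the signal from the receptor to the nucleus, were lower in ExE wt than in E wt. Smad1 (chr8:79338395-79399518, minus strand) showed 67.3, 68.2, 57.8 and 60.5 CPM in E wt and 49.4, 33.3, 24.5 and 26.4 in ExE wt. The groups did not overlap, and Smad1 fell by 0.93 on the log2 scale from E to ExE (SE 0.25, adjusted p = 0.0123 by edgeR). In het, where E libraries held 44.2 to 77.3 CPM and ExE libraries 18.4 to 28.3, it fell by 1.29 (SE 0.25, adjusted p = 0.000553). In hom the tissues overlapped, at 33.2 to 58.9 CPM in E and 24.6 to 39.8 in ExE, and the log2 difference of -0.62 ± 0.27 did not pass the test (adjusted p = 0.118). Without E hom pool 3, a library with the high ribosomal protein level, it was -0.76 and passed (adjusted p = 0.0461).

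Smad5 (chr13:56703010-56742377, plus strand) showed 36.8, 41.0, 44.7 and 54.1 CPM in E wt and 15.1, 17.5, 13.8 and 17.3 in ExE wt. Every ExE library lay below every E library, and Smad5 fell by 1.47 on the log2 scale (SE 0.42, 2.77-fold, adjusted p = 0.0191 by edgeR). That call was lost without E wt pool 5 (-1.36, adjusted p = 0.0539) or without ExE wt pool 4 (-1.41, adjusted p = 0.0528). In het the log2 difference was -0.60 ± 0.42 (adjusted p = 0.318) and in hom -0.90 ± 0.46 (adjusted p = 0.187), and the tissues overlapped in both. With the pool number as a block, the hom value was -1.22 and passed (adjusted p = 0.0316). That a SMAD passed in wt and not in hom does not by itself show a difference between the genotypes. The test of that difference gave 0.30 ± 0.36 for Smad1 and 0.57 ± 0.61 for Smad5, both with adjusted p = 1 by edgeR. Neither passed, and with SEs of this size the test cannot exclude a difference.

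The Id genes, listed as targets of the pathway, were split by tissue, with Id3 the leading member in E and Id2 the leading member in ExE. Id2 (chr12:25093799-25097140, minus strand) showed 97.3, 12.5, 58.7 and 18.5 CPM in E wt and 460, 777, 535 and 708 in ExE wt. E het libraries held 22.4, 24.3, 265 and 35.8 CPM against 574, 657, 626 and 772 in ExE het. E hom libraries held 52.7, 20.9, 110 and 30.4 CPM against 604, 855 and 764 in ExE hom. All ExE libraries lay above all E libraries, while E het pool 4 was far above the other E het libraries. Id2 was higher in ExE by 3.73 ± 0.73 on the log2 scale in wt (13.3-fold, adjusted p = 0.00141), by 2.93 ± 0.71 in het (adjusted p = 0.00357) and by 3.80 ± 0.75 in hom (adjusted p = 0.00182), all by edgeR. These values were larger without single E libraries: without E het pool 4 the het value was 4.60 (adjusted p = 1.29e-05), without E wt pool 1 the wt value was 4.38 (adjusted p = 0.00132) and without E hom pool 3 the hom value was 4.43 (adjusted p = 0.00115, all by edgeR).

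Id3 (chr4:136143497-136145755, plus strand) ran the other way. Its E wt libraries were close together, at 265, 300, 295 and 274 CPM, and its ExE wt libraries were spread over 173, 19, 103 and 42.7. The het libraries held 292, 316, 493 and 294 in E and 35.2, 36.8, 21.7 and 39.7 in ExE. The hom libraries held 262, 292, 445 and 248 in E and 25.4, 178 and 61.3 in ExE. All ExE libraries were below all E libraries, with a wide spread among the ExE ones. Id3 fell from E to ExE by 1.75 on the log2 scale in wt (SE 0.50, adjusted p = 0.0191), by 3.39 in het (SE 0.54, adjusted p = 8.14e-05) and by 1.83 in hom (SE 0.56, adjusted p = 0.0278), all by edgeR. The wt call was lost without ExE wt pool 2 (-1.41, adjusted p = 0.054) or pool 5 (-1.53, adjusted p = 0.0669). The hom call was lost without E hom pool 3, ExE hom pool 1 or ExE hom pool 4 (-1.38 to -1.62, adjusted p = 0.0533 to 0.126), and when only the hom groups were fitted (-1.82, adjusted p = 0.0882). Without ExE wt pool 1 the wt value was -2.37 (adjusted p = 0.00296), and without ExE hom pool 3 the hom value was -2.83 (adjusted p = 0.00312, all by edgeR).

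Id1 (chr2:152736251-152737410, plus strand) did not pass the test in any genotype. It showed 22.9, 15.5, 32.4 and 4.73 CPM in E wt and 27.7, 17.9, 35.5 and 24.1 in ExE wt, with overlap. The log2 difference was 0.48 ± 0.37 in wt (adjusted p = 0.428), -0.19 ± 0.37 in het (adjusted p = 0.764) and 0.30 ± 0.40 in hom (adjusted p = 0.66), all by edgeR. Since the libraries are bulk pools, fewer cells of a type and less RNA per cell cannot be told apart in any of these differences.

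**Figure D2:**
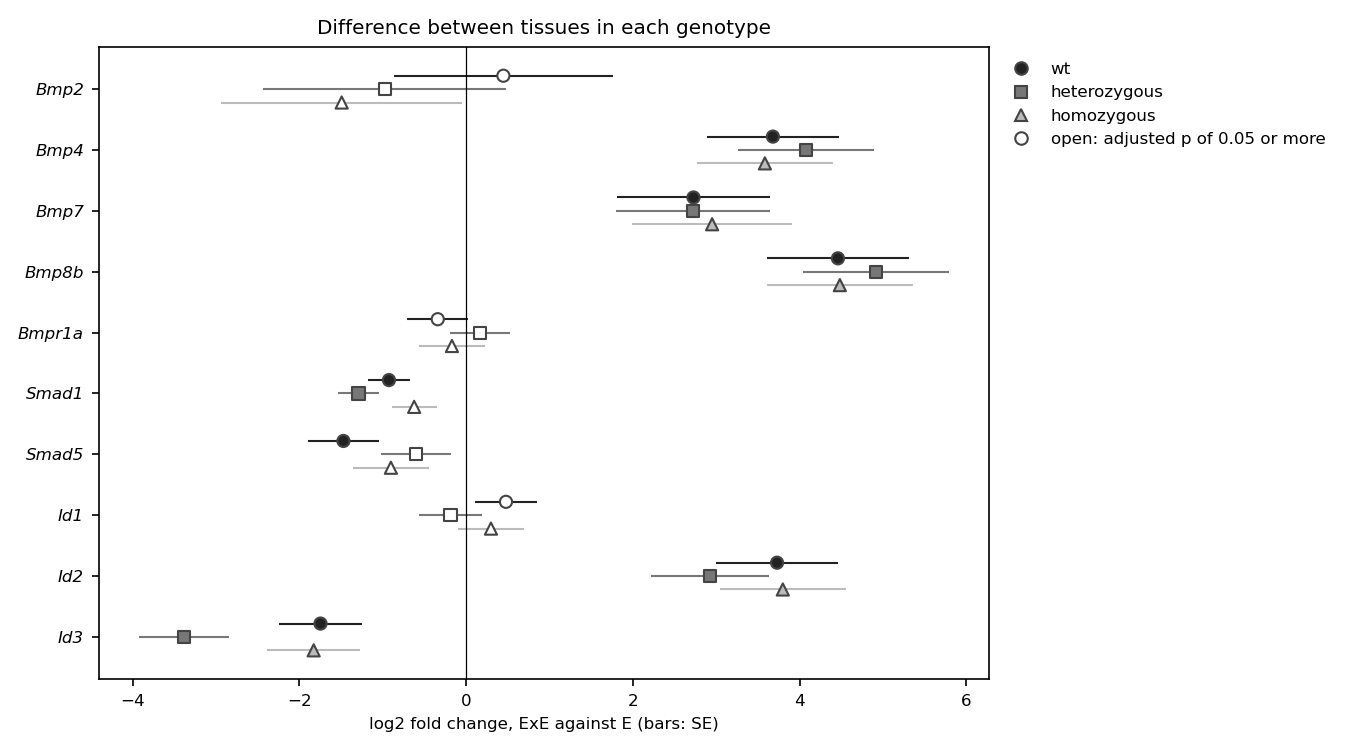
Log2 fold change of each member between ExE and E, by genotype, with bars of 1 SE. Filled symbols passed the adjusted p of 0.05 and open ones did not. Bmp8b has the largest difference in each genotype, and Id3 is lower in ExE in all 3.

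In het, 6 of 10 members were called between the tissues, beside 27% of all genes: Bmp4, Bmp7, Bmp8b and Id2 were higher in ExE, beside 12% of all genes, and Smad1 and Id3 were lower, beside 14.9%. In hom, 5 of 10 were called, beside 16.8% of all genes: the same 4 were higher, beside 9.12%, and Id3 was lower, beside 7.66%. The tissues did not overlap for 8 members in wt, 6 in het and 5 in hom, beside 28%, 29.7% and 23.3% of all genes. The 3 comparisons use separate libraries. Without the 3 libraries of high ribosomal protein level the members called numbered 7, 6 and 5 in wt, het and hom, as with them. None of the 3 is a wt library, so the wt libraries compared were the same in both fits.

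Per kilobase of exon, the order of the genes differed between the tissues. In E, Id3 led at 176 ± 41.9 CPM per kb (SD, n = 12), ahead of Id2 (25.6 ± 29.1), Id1 (19.96 ± 7.15), Bmpr1a (15 ± 4.27), Smad1 (9.13 ± 1.84), Smad5 (4.79 ± 1.73) and Bmp4 (4.20 ± 3.55). Bmp8b (1.55 ± 1.62), Bmp2 (0.824 ± 1.39) and Bmp7 (0.482 ± 0.418) followed. In ExE, Id2 led at 274 ± 49.3 CPM per kb (n = 11), then Bmp4 (58.0 ± 12.7), Bmp8b (38.2 ± 10.2), Id3 (37.4 ± 32.7), Id1 (22.5 ± 5.32) and Bmpr1a (13.9 ± 4.18). Smad1 (4.73 ± 1.41), Bmp7 (3.30 ± 0.874), Smad5 (2.35 ± 0.997) and Bmp2 (0.385 ± 0.529) closed the order. Only the first step in each tissue was clear of overlap between libraries: all other neighbours in the order of the means had overlapping ranges. At 2 steps in E, most libraries ran against the order of the means: Id2 was above Id1 in 5 of 12 E libraries, and Bmp2 was above Bmp7 in 4 of 12.

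The sum of the 4 ligands ranged from 0.873 to 17.1 CPM per kb in E (median 5.23) and from 63.7 to 130 in ExE (median 109). Within it, Bmp4 made up 47.7% to 65.0% in ExE and Bmp8b 32.3% to 47.6%. The summed level of Id1, Id2 and Id3 differed less, at 165 to 414 CPM per kb in E (median 197) and 276 to 478 in ExE (median 310). Its make-up turned over: Id3 held 66.5% to 92.9% of it in E (median 82.5%) and Id2 held 61.0% to 92.4% in ExE (median 85.4%). Id1 stayed a minor share in both, at 2.48% to 13.9% in E and 4.48% to 9.94% in ExE.

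**Figure D3:**
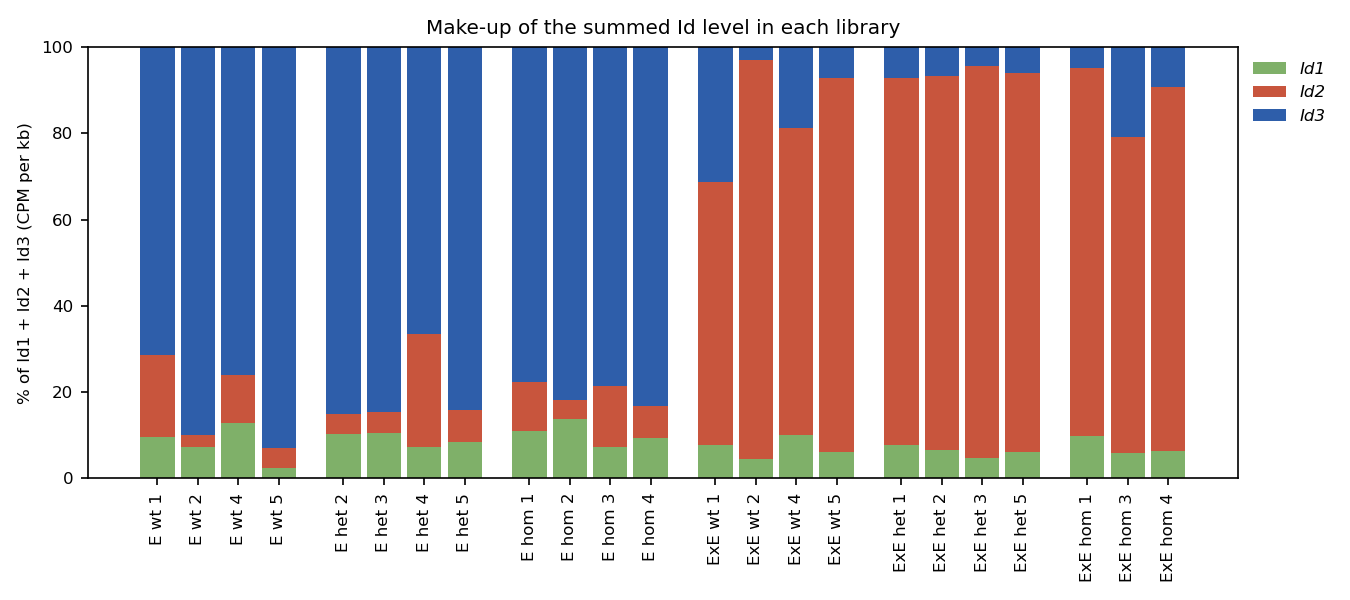
Share of Id1, Id2 and Id3 in their summed level (CPM per kb) in each of the 23 libraries. Id3 makes up most of the bar in every E library and Id2 in every ExE library. The smallest shares of the leading gene are in E het pool 4 (66.5%) and ExE wt pool 1 (61.0%).

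The low levels of Bmp4, Bmp8b and Id2 in E libraries, and of Id3 in ExE libraries, moved with the markers of the other tissue. Of the 12 E libraries, the 5 with the most extra-embryonic ectoderm markers (wt pools 1 and 4, het pool 4, hom pools 1 and 3) were also, on the same percentage scale, the 5 highest for Bmp4, for Bmp8b and for Id2. In them the marker median was 10.9%, 10.2%, 17.4%, 6.19% and 16.8% of the ExE level, and Bmp4 was 10.0%, 14.7%, 17.1%, 14.8% and 13.5%. In the other 7 E libraries the marker median was 0.101% to 2.62% and Bmp4 was 0.0784% to 5.44%. Id2 in E het pool 4 stood further out, at 40.3% of the ExE het level. Other genes higher in ExE followed the markers less closely. Bmp7 was highest in E het pool 4 (42.7%), but E het pool 2, with a marker median of 0.668%, was at 19.3% and E hom pool 1 at 10.3%. Bmp8a was highest in E hom pool 2 (21.6%), where the marker median was 0.469%. Of the 11 ExE libraries, the 4 with the most epiblast markers (wt pools 1 and 4, hom pools 3 and 4) were also the 4 highest for Id3. Their marker medians were 35.8%, 24.0%, 18.7% and 19.7% of the E level, and their Id3 levels 61.1%, 36.4%, 57.1% and 19.7%. The other 7 had marker medians of 1.85% to 11.6% and Id3 at 6.21% to 15.1%. Smad1 and Smad5, also lower in ExE wt, followed the epiblast markers less closely. In the same 4 libraries Smad1 was at 77.9%, 38.55%, 49.2% and 79.6% of the E level, beside 31.6% to 65.6% in the other 7. Smad5 was at 34.2%, 31.2%, 14.05% and 87.8%, beside 35.8% to 99.5%. The part of such carry-over in the levels was not tested. Without the library of each group richest in the other tissue's markers, all tissue calls of members stayed: Bmp4 was higher in ExE wt by 3.92 (adjusted p = 0.000841), Id2 by 4.48 (adjusted p = 1.44e-06), and Id3 fell by 2.41 on the log2 scale (adjusted p = 0.000267, all by edgeR).

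**Figure D4:**
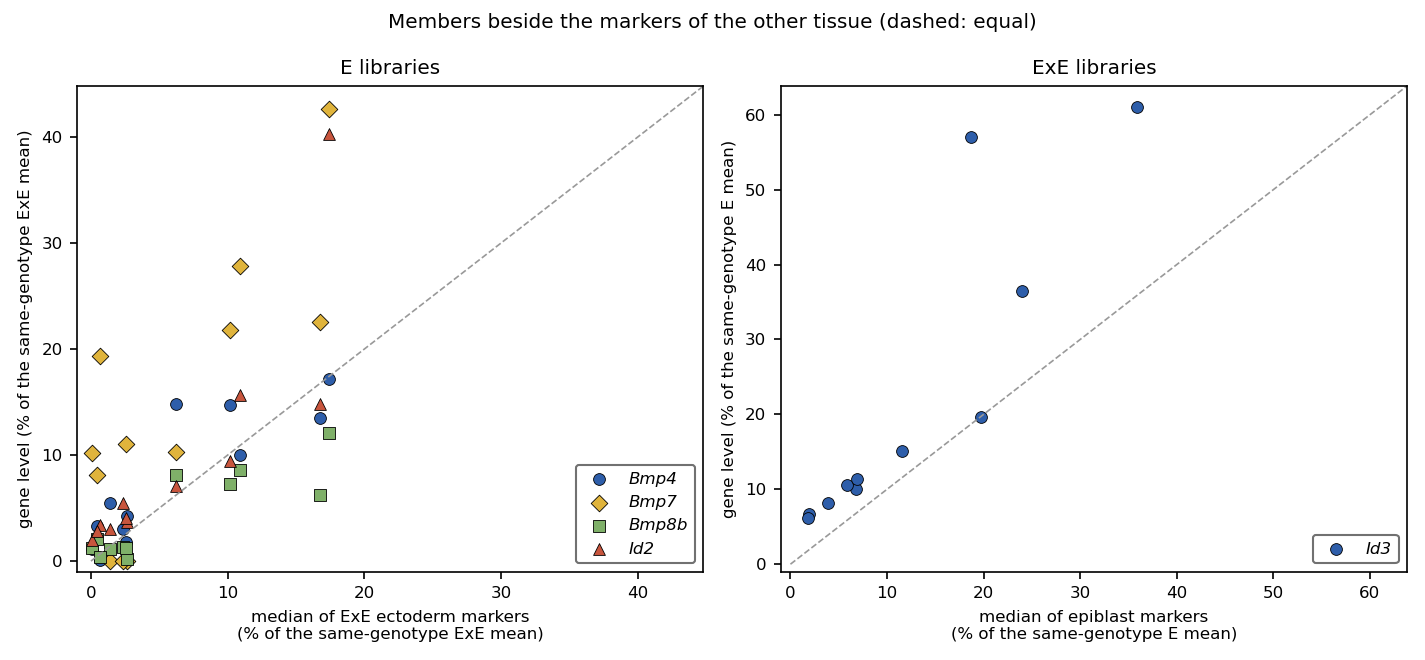
Level of members (vertical axis) against the median of the other tissue's markers (horizontal axis), both as a percentage of the mean of the other tissue in the same genotype. Each point is a library, and the dashed line marks equal percentages. On the left, Bmp4, Bmp8b and Id2 are highest in the 5 E libraries with most markers, with Id2 of E het pool 4 at 40.3%, while Bmp7 is also at 19.3% in E het pool 2, which has few markers. On the right, Id3 is highest in the 4 ExE libraries with most markers.

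Among 57 other genes of the pathway, 40 passed the filter on low counts, and in wt 11 were called higher in ExE and 3 lower, beside 9.28% and 7.98% of all genes. Their median log2 fold change was 0.06, beside -0.013 over all genes. The list holds other ligands, receptors, co-receptors, regulators, antagonists and targets. Of 8 targets and effectors tested, 5 were higher in ExE and 0 were lower, beside the same 2 shares. They included the trophoblast regulators Hand1 (4.4 ± 1.37, adjusted p = 0.0291), Gata3 (4.08 ± 0.98, adjusted p = 0.00629), Tfap2c (4.00 ± 1.20, adjusted p = 0.0241) and Gata2 (3.33 ± 1.10, adjusted p = 0.0393) on the log2 scale, all by edgeR. Gata3 and Tfap2c are also in the list of extra-embryonic ectoderm markers and Hand1 in that of the ectoplacental cone.

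The inhibitory and accessory genes divided too. The feedback inhibitors Smad6 (16.4 ± 9.08 CPM in E wt and 67.2 ± 23.3 in ExE wt, n = 4 each) and Smad7 (89.9 ± 5.80 and 183 ± 36.6) were higher in ExE wt, by 2.03 and 1.02 on the log2 scale. Both passed the test. So were Bmp1, a protease that frees BMPs from the antagonist chordin (3.14 ± 0.57, adjusted p = 0.000772), Eng, a co-receptor (2.63 ± 0.58, adjusted p = 0.00324), Fstl3 (3.59 ± 1.01, adjusted p = 0.0171) and Bmp8a (3.36 ± 0.83, adjusted p = 0.00731), all by edgeR. On the other side, Fst, which encodes the ligand trap follistatin, fell from 58.7 ± 19.98 CPM in E wt to 9.41 ± 10.9 in ExE wt, by 2.64 on the log2 scale (SE 0.77, adjusted p = 0.0205). Zfp423, a zinc finger partner of SMADs, fell by 1.89 (SE 0.55, adjusted p = 0.0198), and Fstl1 fell by 1.74 (SE 0.56, adjusted p = 0.0341, all by edgeR). None of the 6 other receptors tested was called in wt, and 1 of the 6 had an unadjusted p below 0.05 by edgeR. In het 11 of the 40 were called higher and 6 lower, beside 12% and 14.9% of all genes. In hom 10 were called higher and 2 lower, beside 9.12% and 7.66%.

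The second question of the design was whether the gt allele changed the RNA levels of the pathway genes within a tissue. By edgeR, 0 of 10 members were called in E hom against E wt, beside 0.0161% of 12405 genes, and 0 in ExE hom against ExE wt, beside 0% of 12355 genes. There were 0 also in E het and in ExE het against wt, beside 0% of all genes in both. At an unadjusted p below 0.05 there were 0, 0, 0 and 1 members in these 4 comparisons, beside 4.19%, 7.57%, 2.4% and 4.13% of all genes. DESeq2 and limma-voom called 0 members in each as well. The 4 comparisons share the wt libraries of their tissue.

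For the ligands with a clear level in ExE, no difference between genotypes passed the test. Bmp4 in ExE hom was at 82.5, 82.7 and 150 CPM, beside 110 to 163 in wt, for a log2 difference of -0.46 ± 0.24 (adjusted p = 0.711 by edgeR). Of the 3 hom pools, 2 were below all wt pools and 1 was within them. Bmp8b differed by -0.20 ± 0.27 and Bmp7 by 0.36 ± 0.37 in ExE hom, with overlap in both (adjusted p = 0.949 and 0.904). In ExE het the log2 differences were -0.07 ± 0.22 for Bmp4, 0.29 ± 0.25 for Bmp8b and 0.17 ± 0.34 for Bmp7, each with adjusted p = 1 by edgeR.

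Bmp2 varied widely between pools, and no difference of it between genotypes passed the test. Against wt of the same tissue, its log2 difference was -1.31 ± 1.29 in E het, 0.62 ± 1.37 in ExE hom and -2.74 ± 1.41 in ExE het. The groups overlapped in each. In E hom it was at 13.1, 13.6, 1.55 and 0.339 CPM, so that 2 hom pools were above all 4 wt pools and 2 were within their range. The log2 difference of 2.62 ± 1.25 did not pass the test (adjusted p = 0.961 by edgeR). The 20 markers of the visceral endoderm summed to 463 and 635 CPM in those 2 pools and to 136 and 195 in the other hom pools. In E wt they summed to 1254 in pool 1, where Bmp2 was at 2.23, and to 120 to 233 in the other pools. In the 2 high hom pools 0 and 1 of the 20 markers were at 0, and in hom pools 3 and 4 there were 4 and 1. In E wt pools 1, 2, 4 and 5 there were 0, 3, 0 and 4. The part of visceral endoderm cells in the Bmp2 level was not tested.

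Among the receptor and the SMADs, Bmpr1a in E het lay below all wt pools at 88.1, 101, 46.6 and 96.1 CPM, as 1 of 10 members without overlap there, beside 2.88% of all genes in either direction. In E hom 0 of 10 were without overlap, beside 4.43%. The log2 difference of -0.42 ± 0.31 did not pass the test (adjusted p = 0.982 by edgeR) and was -0.22 without the 3 libraries of high ribosomal protein level. Smad5 in E het was at 30.5, 41.7, 17.4 and 17.6 CPM, with overlap of wt, for -0.71 ± 0.34 (adjusted p = 0.982 by edgeR). In ExE hom the differences were -0.10 ± 0.41 for Bmpr1a, -0.05 ± 0.30 for Smad1 and 0.27 ± 0.49 for Smad5. All 3 overlapped wt, and ExE hom pool 3 was the lowest of its group for each.

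Of the Id genes, Id3 in ExE het was the 1 member with an unadjusted p below 0.05. At 35.2, 36.8, 21.7 and 39.7 CPM its het libraries lay within the wide range of wt, and the log2 difference was -1.32 ± 0.60 (adjusted p = 1 by edgeR). Of 9 epiblast markers, 0 had a positive log2 difference in the same comparison, with a median of -1.68, and 0 were called. Without the marker-rich libraries the Id3 value was -0.79. In ExE hom Id3 differed by 0.02 ± 0.63, Id2 by 0.24 ± 0.20 and Id1 by 0.23 ± 0.28. In E hom the 3 Id genes differed by 0.42 ± 0.42 (Id1), 0.19 ± 0.82 (Id2) and 0.14 ± 0.21 (Id3). E het gave 0.43 ± 0.42, 0.88 ± 0.82 and 0.30 ± 0.21, and E het pool 4 was the highest of its group for each. All overlapped wt.

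**Figure D5:**
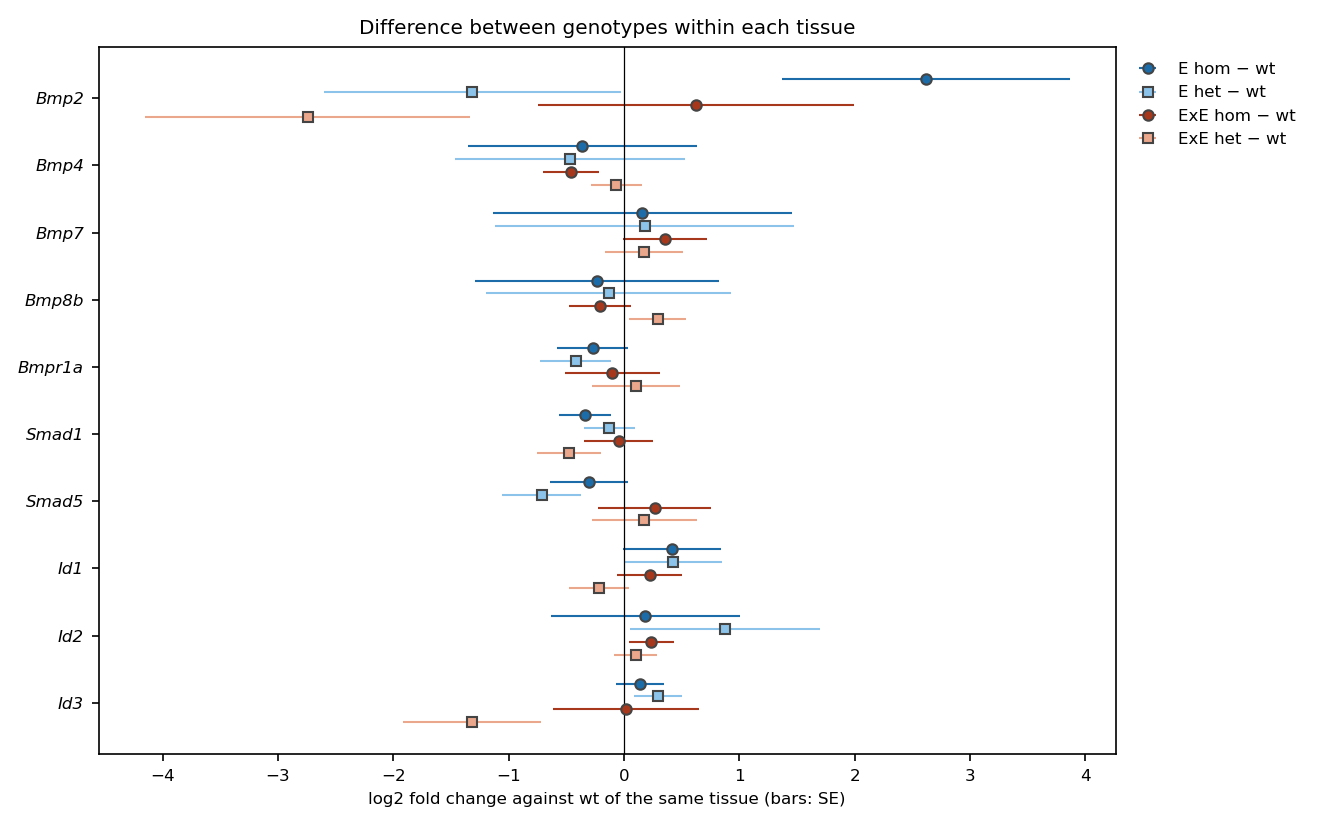
Log2 fold change of each member against wt of the same tissue, with bars of 1 SE, for hom and het in E and ExE. No member passed the adjusted p of 0.05 in any of the 4 comparisons. Bmp2, and in E also Bmp7, have the widest bars, and Bmp4 and Id2 in ExE have narrow ones.

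The test of whether the effect of the allele differed between the tissues called 0 of 10 members for hom and 0 for het, beside 0% of 13595 genes in both, by edgeR. At an unadjusted p below 0.05 there were 0 and 1 members, beside 3.06% and 5.27% of all genes. Its smallest p was that of Id3 for het (-1.64 ± 0.70, adjusted p = 0.861 by edgeR). Over all 10 members the differences for hom ranged from -1.94 ± 1.94 (Bmp2) to 0.57 ± 0.61 (Smad5).

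The other pathway genes had 0 calls by edgeR in each of the 4 genotype comparisons, of 35 tested in E and 37 in ExE. At an unadjusted p below 0.05 there were 3 in E hom, 6 in ExE hom, 3 in E het and 4 in ExE het, beside 4.19%, 7.57%, 2.4% and 4.13% of all genes. The smallest p-values in E hom belonged to Gdf3, a ligand of the epiblast, at 10.8 ± 1.95 CPM in wt and 27.8 ± 7.69 in hom (log2 difference 1.37 ± 0.34, adjusted p = 0.826), and Nbl1, an antagonist, at 0.341 ± 0.408 and 5.49 ± 1.62 (3.93 ± 1.22, adjusted p = 0.961). For both genes all hom pools were above all wt pools. In ExE hom they belonged to Smad4, the common partner of the receptor-activated SMADs (-0.65 ± 0.23), and to Gata2 (1.5 ± 0.53), both with adjusted p = 0.513. In E het they were Gdf3 (0.91 ± 0.34) and Cer1, an antagonist that was at 0 to 2.03 CPM in E wt and at 0 in all 4 het pools, both with adjusted p = 0.982. Of the 18 visceral endoderm markers tested in the same comparison, 13 had an unadjusted p below 0.05, 1 had a positive log2 difference and 0 were called, with a median of -3.65. Their part in the Cer1 level was not tested. In ExE het they were Gata2 (1.57 ± 0.50, adjusted p = 0.983) and Zfp423 (-2.25 ± 0.79, adjusted p = 1), all by edgeR. Zfp423 was higher in E between the wt tissues, and the epiblast markers also had negative log2 differences in ExE het. Of the ectoplacental cone markers, Plac1, Ascl2, Flt1 and Hand1 differed by 2.9, 1.23, 0.26 and 0.175 in ExE het. In ExE hom they differed by 3.66, 1.53, 0.90 and 0, and none was called in either. The part of these cells in the Gata2 and Zfp423 levels was not tested.

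After the mean of each of the 6 groups was taken off, log2 CPM was compared between genes over the 23 libraries. Among members, the highest values of Pearson's r were 0.90 for Bmp8b with Id2, 0.79 for Bmpr1a with Smad5, 0.77 for Bmp4 with Id2 and 0.74 for Bmp4 with Bmp8b. Of 8870 genes compared, those most like Bmp4 were Afap1l1 (0.95), Rhox5 (0.93) and Stard8 (0.92). For Bmp8b they were Trap1a, Anxa5 and Polg (0.91 each), for Bmp7 Fam83h (0.87), Rreb1 (0.87) and Acadvl (0.81), and for Bmp2 Obsl1 (0.74), Dll3 (0.68) and Lrpap1 (0.67). Id2 was most like Htra1 (0.97), Tex19.1 (0.96) and DXBay18 (0.96). Id3 was most like Pou5f1 (0.95), a defining gene of the epiblast, Myrf (0.95) and Ccnd1 (0.94). Id1 was most like a gene whose symbol was altered to a date in the table (0.85), Rab20 (0.82) and B3gnt1 (0.79). Bmpr1a was most like Nae1 (0.97), Rars (0.96) and Ube2v2 (0.96), Smad1 like Rpa1 (0.85), Tmem165 (0.82) and Mlh3 (0.81), and Smad5 like Spag9 (0.91), Cyp51 (0.86) and Suv420h1 (0.86). These correlations describe 23 libraries that share the depth, carry-over, ribosomal, length and GC features given above.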

How the data were processed

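The authors deposited 1 table of raw read counts per gene for 23 libraries, made from amplified cDNA of 1 to 10 ng RNA per pool and sequenced as 75-base single-end reads, per the labels' protocols. The submitters' processing notes name cutadapt 1.7.1, TopHat2 2.0.12 and the build mm10 (GRCm38). The counting tool, annotation and strand setting were not given in the sources used here, so reads of Bmp4 and Bmpr1a cannot be told apart from those of the antisense genes on them. Of its symbols, 27 had been turned into dates. Counts were analysed as deposited with edgeR 4.0.16 in R 4.3.3: TMM scaling, filterByExpr (minimum count 10, minimum total 15), the quasi-likelihood test and Benjamini-Hochberg adjustment over all genes tested. Tissue comparisons and differences of effects used 1 fit of all 23 libraries, and genotype comparisons 1 fit for each tissue. Levels per kilobase used the exon length of GENCODE M21. DESeq2 1.42.0 and limma-voom (limma 3.58.1) were alternatives, beside other scaling, filtering, sample sets and the pool number as a block. The code was tested on simulated data.

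The labels state that E and ExE pools of the same number come from the same litters in 3 of 4 pools, without saying which pool is the exception. The 10 pairs of the same number and genotype had correlations of their deviations from -0.12 to 0.74 (median 0.17), and 6 of 10 libraries correlated best with their own number. Within a tissue, pools are separate embryos, and p-values measure the spread between pools. The main test between tissues treated E and ExE pools as independent, although most of those with the same number share litters. The fit with the pool number as a block is the alternative to that. The 33 pairs of libraries of 1 group differed beyond counting noise (chi-square per degree of freedom of at least 12.3). All 10 members are reported. Other pathway genes were named by a rule: between the wt tissues, the called genes averaging 1 or more in log2 CPM with the 8 largest rises and falls, and in genotype comparisons, where none was called, the 2 of smallest p. The 3 genes most like a member were taken among genes averaging 3 or more in log2 CPM. Smad6 and Smad7 were named after their values were seen. Members and lists were chosen with earlier results of these data known.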

Additional observations from a re-analysis of the deposited data

Results flagged for a closer look

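In 50 groups of 4 libraries (the 10 members in 5 groups), the highest or lowest library stood apart by Dixon's test in 4. Chance does so in about 1 of 20 groups. All 4 were in the E het group. Bmp2 was at 1.61 CPM in pool 3, beside 0 to 0.176 in the other pools. Pool 4 stood apart for the other 3 genes: Bmp8b was at 20.8 CPM, beside 0.346 to 2.36, Id2 was at 265 CPM, beside 22.4 to 35.8, and Id3 was at 493 CPM, beside 292 to 316. In the same pool the mean log2 CPM of the ribosomal protein genes was 9.42 and the median of the extra-embryonic ectoderm markers was 17.4% of the ExE het level, the highest of the E libraries. The part of these features was not tested.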

How the results depend on the processing

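Of 1543 member values recomputed under alternatives, 1513 kept their call, 28 lost it (Bmp7 in 20, Id3 in 6 and Smad5 in 2) and 2 gained it. No called value changed sign, and 142 uncalled values did, of which 29 moved by more than 1 SE. None of 1074 genotype values and differences of effects was called. Leaving out 1 library at a time gave 5 to 7 called members in wt tissues (7 with all), 5 to 6 in het (6 with all) and 3 to 5 in hom (5 with all, and 3 without ExE hom pool 1 or pool 4). With the pool number as a replicate block, hom lost Bmp7 (2.84, adjusted p = 0.0707 by edgeR) and gained Smad5 (-1.22, adjusted p = 0.0316), and no other call of a member changed. When only the groups compared were fitted, Bmp7 lost its call in het (2.71, adjusted p = 0.0847 by edgeR) and Id3 in hom (-1.82, adjusted p = 0.0882). The het values of Bmp4, Bmp8b and Id2 were larger by limma-voom (5.72, 6.60 and 3.91) and with the block (5.56, 7.39 and 4.66). Between genotypes, the block matched pools by number alone, and shared litters were not tested. In E wt and hom the correlations were -0.32 to 0.26, and 2 of 3 pools were best with their own number. In E wt and het they were 0.23 to 0.42, also with 2 of 3. In E het and hom they were -0.64 to 0.36, and there and in each ExE comparison 0 were best with their own. In E hom against wt, the block gave 0 called members and 0 called genes (2 without it).

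Counts over all genes moved more. DESeq2 called 17 genes in E hom, 13 in ExE hom, 4 in E het and 25 in ExE het against wt, and 3 and 28 for the hom and het differences of effects (edgeR: 2, 0, 0, 0, 0 and 0). Fitting only the groups compared gave 1009 genes between the hom tissues (2282 with all). One fit of all libraries gave 1 in E hom, 1 in ExE hom and 20 in ExE het, and no filter gave 1 in ExE hom. Without the 3 libraries of high ribosomal protein level there were 3672 genes between the wt tissues (2347 with all) and 4 in E hom. Without the marker-rich libraries, an alternative chosen after seeing the data, there were 3676, 5 in E hom and 1 for the het difference of effects. Leaving out ExE wt pool 2 gave 1502 genes between the wt tissues and 7 for the het difference of effects, leaving out ExE hom pool 1 gave 1311 between the hom tissues, and leaving out ExE hom pool 4 gave 2 in ExE hom. In E hom, leaving out 1 library gave 0 to 1. Depth limits Bmp2 and Bmp7, which were at 0 counts in several libraries, and Bmp2 fell below the filter in some ExE fits, which gave no value.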
